A study of Mus musculus with 3 samples.

Results

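The Ms4a18 and Il18 cells are the small intestinal cells that had, in their own library, a summed deposited value of Ms4a18, Hkdc1, Il18, Reg3a, Apol10a and Car4 among the top 8% of cells. Cells with much Paneth or goblet cell RNA were first set aside, namely those with at least 1500 UMIs per 10000 of Defa genes or at least 30 UMIs per 10000 of Agr2. A UMI (unique molecular identifier) stands for 1 captured RNA molecule. Of 12653 cells, 9443 were left after these exclusions and 756 were chosen: 250 of 3124 in AOS 0, 176 of 2200 in B + A 0 and 330 of 4119 in B + A 10. Because measured values of the 6 genes made the choice, the levels of these genes in the chosen cells are given as a description.

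All 3 groups were male mice of the outbred ICR stock, 3 weeks old at the start, and all were gavaged for 2 weeks. AOS 0 received the vehicle with no busulfan. B + A 0 received 1 injection of busulfan, an alkylating drug that damages DNA, at 40 mg/kg and then the vehicle. B + A 10 received the same busulfan injection and then alginate oligosaccharide (AOS), short sugar chains cut from seaweed alginate, at 10 mg/kg. Cells of 6 mice were combined into 1 library per group. There is therefore no replicate, no test was made between groups, and a difference between libraries cannot be told apart from a difference in how the libraries were made. Intervals given below are 95% intervals that cover counting error only.

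Enterocytes are the absorptive cells of the intestinal villus. They are born in the crypt, lose their ribosome-rich dividing state, and move up the villus while their work shifts from antimicrobial defence near the base to uptake of sugars and amino acids and then to lipid handling and adhesion near the tip. They also differ along the gut, with iron and calcium uptake strongest in the duodenum and bile acid uptake strongest in the ileum. Villus enterocytes are a main store of interleukin 18, a cytokine made as an inactive precursor that caspase 1 cuts once an inflammasome such as NLRP6 with its adaptor PYCARD has formed.

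The 6 genes that made the score code for proteins with unlike work, and their positions are on build mm10. Ms4a18, on chromosome 19 from 10997025 to 11018031, codes for a membrane protein of the MS4A family. Hkdc1, on chromosome 10 from 62383137 to 62422491, codes for a hexokinase domain protein. Il18, on chromosome 9 from 50554827 to 50581840, codes for the interleukin 18 precursor. Reg3a, on chromosome 6 from 78380709 to 78383827, codes for a secreted C-type lectin of the REG3 family, whose members bind bacteria. Apol10a, on chromosome 15 from 77477047 to 77491069, belongs to the apolipoprotein L family. Car4, on chromosome 11 from 84957786 to 84966044, codes for a carbonic anhydrase held on the outer face of the apical membrane. Ms4a18 and Hkdc1 lie on the minus strand and the other 4 on the plus strand.

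The chosen cells held 1983207, 1156904 and 1244883 UMIs, with AOS 0 first, then B + A 0, then B + A 10. The median per cell was 7165.5, 5840 and 3269 UMIs, beside 7053, 6129.5 and 3385 in the other cells left after the exclusions, so the chosen cells were about as deep as the rest of their library and both were shallowest in B + A 10. They were deeper than the other enterocytes compared below, whose medians were 5618, 5218 and 2822. The part of this depth difference in those comparisons was not tested. The exclusions took 23.9%, 31.1% and 23.0% of the cells of the 3 libraries. Between 17 and 34 cell barcodes were shared by each pair of libraries, and 0 of them were among the chosen cells of both. In all that follows a level is the UMIs of a gene summed over the cells of a set, per 1000000 UMIs of that set, and 3 values in a row are in that same order of libraries unless said otherwise.

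In the chosen cells Reg3a was at 1477 (1424 to 1531), 1109.9 (1050.0 to 1172) and 1395 (1329.7 to 1462) UMIs per 1000000. For Apol10a the level was 728 (691 to 767), 511 (470.5 to 554) and 516 (477 to 557). For Ms4a18 it was 484 (454 to 516), 544 (502 to 588) and 626 (583 to 671). Such levels count captured 3′ ends and are compared here between cells, not between genes. Car4 was at 370.1 (344 to 398), 336 (304 to 371) and 310.1 (279.9 to 343), Hkdc1 at 272 (249.8 to 296), 303 (272 to 337) and 370.3 (337 to 406) and Il18 at 269.8 (247 to 294), 271 (241 to 302) and 231 (205 to 259.7). Chosen by these very values, the cells had more of each gene than the rest in every library. The lowest score inside the threshold was 8.88, 8.43 and 7.91 and the highest outside was 8.88, 8.43 and 7.90, on the scale of summed ln(1 + UMIs per 10000). The 10 cells just inside and the 10 just outside were much alike in Ms4a18, with means of 3.93, 4.97 and 6.71 UMIs per 10000 inside and 4.16, 4.73 and 6.65 outside. For Il18 the means were 2.96, 1.24 and 0.286 inside and 3.85, 2.12 and 2.86 outside. No gap in the score therefore marks these cells off, and the threshold cuts a range.

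To see each gene free of its own part in the choice, the top 8% was chosen again by the other 5 genes and the sixth was read in those cells. They were set against the other enterocytes, the remaining cells with at least 10 of 1000 thinned UMIs in 8 enterocyte markers, among them Vil1, Fabp1, Fabp2, Alpi and Apoa1. Ms4a18 was then higher in the 5-gene cells, by a ratio of 1.66 (1.52 to 1.82), 1.58 (1.42 to 1.76) and 1.64 (1.48 to 1.80). Car4 had ratios of 1.52 (1.35 to 1.71), 1.42 (1.23 to 1.65) and 1.36 (1.15 to 1.59), Reg3a of 1.35 (1.28 to 1.42), 1.17 (1.09 to 1.26) and 1.21 (1.13 to 1.29) and Apol10a of 1.24 (1.16 to 1.33), 1.22 (1.09 to 1.36) and 1.29 (1.15 to 1.44). These 4 genes were above the level of other enterocytes in each library. Hkdc1 gave 1.13 (1.00 to 1.26), 1.15 (0.994 to 1.34) and 1.33 (1.16 to 1.52), with an interval that included 1 in B + A 0. Il18 gave 0.924 (0.812 to 1.05), 1.03 (0.874 to 1.2) and 1.01 (0.844 to 1.21), with intervals that included 1 in every library. Against all remaining cells, of every type, the Il18 ratio was 2.09, 2.13 and 1.95 and the Ms4a18 ratio 2.69, 2.86 and 2.79. By these values Ms4a18 and Car4 set the cells apart from enterocytes at large and Il18 did not, so the cells are named here only by the score that chose them.

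**Figure D1:**
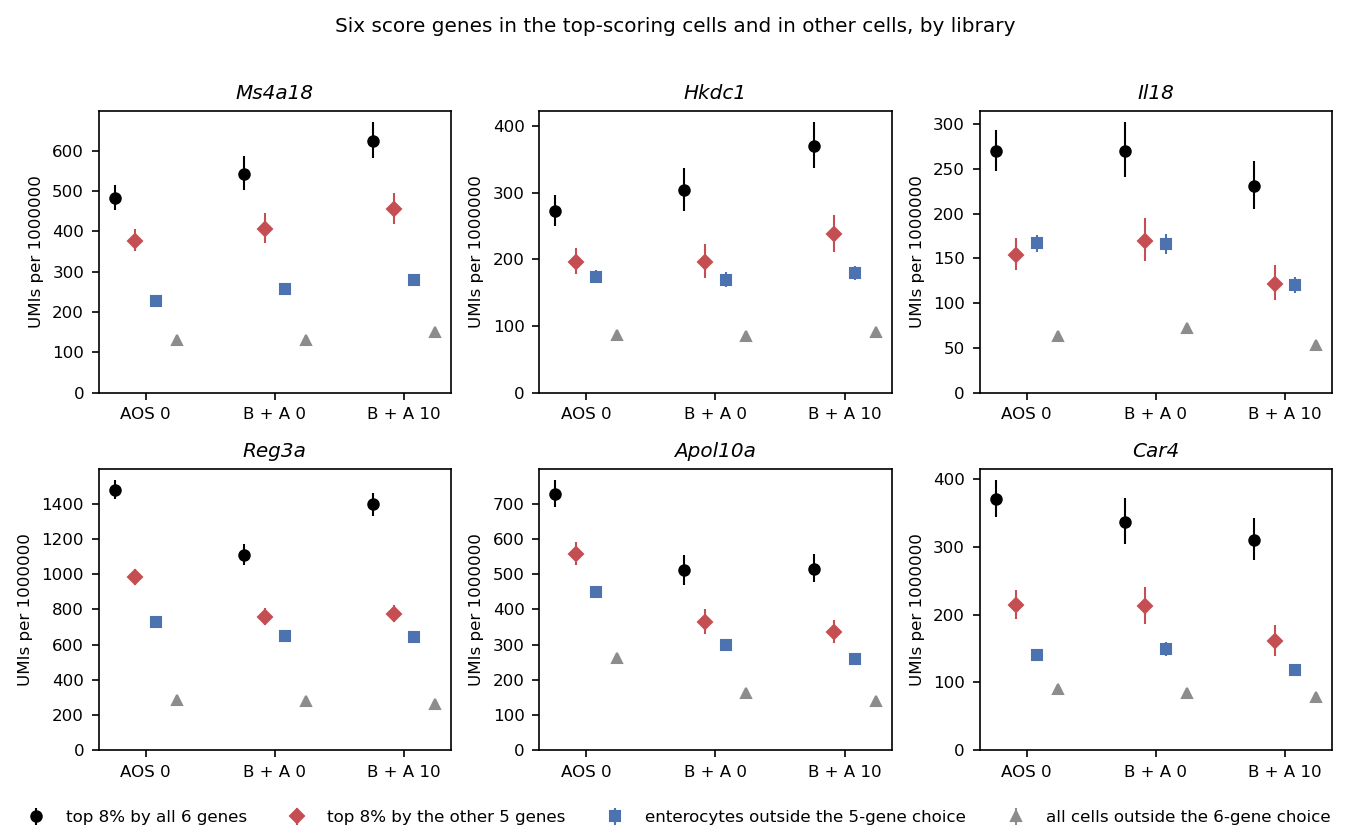
Level of each of the 6 score genes (y axis, UMIs per 1000000 with 95% Poisson intervals) in the 3 libraries (x axis). Black circles are the chosen cells, red diamonds the cells chosen by the other 5 genes, blue squares the enterocytes outside that 5-gene choice and grey triangles all cells outside the 6-gene choice. For Il18 the red and blue points lie together in each library, while for Ms4a18 and Car4 the red points lie above the blue.

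Few chosen cells showed all 6 genes once depth was made equal. As deposited, 138 of 250, 98 of 176 and 58 of 330 chosen cells had a UMI of each of the 6 genes. After every cell was thinned to 1000 UMIs, which no cell fell short of, 2, 0 and 0 did, while 36.4%, 31.8% and 33.9% of the cells kept 2 of the genes and 30.8%, 25% and 31.2% kept 3. Over the 3 libraries, 43.9% of the chosen cells kept a Ms4a18 UMI after thinning (95.5% before it), beside 18.2% of other enterocytes and 4.23% of 213 cells with at least 10 T cell marker UMIs of 1000, which should lack the gene. The same shares for Car4 were 27.9%, 8.50% and 1.88% (75.8% of chosen cells before thinning). For Il18 they were 25%, 11.3% and 3.29% (69.3% before thinning). The score chose these cells by the same genes, which fixed the direction of these differences. In cells chosen by the other 5 genes, 34.0, 29.0 and 30.9% kept a Ms4a18 UMI, 18, 19.3 and 13.0% a Car4 UMI and 12.4, 13.6 and 15.8% an Il18 UMI. Median depths of the 3 sets were 5203, 4205 and 3868 UMIs, and the shares in the T cell marker cells are the background against which the others are read.

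Markers of the enterocyte were present in the chosen cells and markers of most other cell types were at or near 0. The 8 enterocyte markers summed to 26607, 27024 and 30008 UMIs per 1000000 in the chosen cells, between the 20080.3, 20299 and 21054 of all other cells and the 57200.5, 49029.8 and 48410.3 of other enterocytes. Under 10 of 1000 thinned enterocyte marker UMIs were found in 131 chosen cells (17.3%), 10 to 39 in 398 (52.6%) and 40 or more in 227 (30.03%). Stem cell markers summed to 30.3, 68.3 and 57.0 (other cells 1305, 1454 and 1204) and cycling markers to 34.3, 57.9 and 43.4 (other cells 638, 543 and 486). Tuft, B cell, myeloid and stroma markers were each below 5 UMIs per 1000000, with both stroma markers of the table at 0 in every library.

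RNA of goblet, Paneth and T cells was present in the chosen cells and differed between libraries. The 6 goblet markers summed to 2385, 6382 and 5635 UMIs per 1000000 (other cells 5927, 8996 and 13235), with none of the 6 at 0. Paneth markers summed to 333, 1011 and 468 (other cells 473, 1133 and 605) and T cell markers to 161, 276 and 478 (other cells 669, 699 and 999.7). At least 1 goblet marker UMI of 1000 was seen in 85.2%, 99.4% and 98.8% of the chosen cells. A few cells held much of it: 3, 5 and 8 chosen cells with at least 15 goblet marker UMIs carried 25.2%, 25.8% and 25.6% of all goblet marker UMIs, and 4, 2 and 7 cells with at least 3 T cell marker UMIs carried 44.4%, 17.3% and 37.1% of the T cell marker UMIs. The part of this RNA in the results below was not tested beyond leaving those cells out.

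Against all other cells left after the exclusions, few genes were higher in the chosen cells and more were lower. At least 2-fold in the same direction in all 3 libraries, 30 of 2726 genes (1.1%) were higher and 194 (7.12%) were lower, the 6 score genes, Agr2 and the Defa genes not counted. Ribosomal protein genes made up 9.40% of the UMIs of the chosen cells and 17.8% of those of the other cells, and when they were left out of the scaling the counts over the same genes became 7 higher and 261 lower, with the median of all genes 0.14 lower on the log2 scale. With the minimum level taken on that scale too, 8 were higher and 305 lower. Taken as a mean over cells in place of a sum, 2 genes were higher and 156 lower. The direction of the split held under each of these scalings, and its size did not.

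Most members of the absorption lists did not pass the 2-fold threshold in either direction. Higher were 2 of 10 genes of the villus middle list (Sis and Slc7a8), 3 of 21 of fat absorption and 2 of 16 of amino acid and peptide handling, with 0 lower in each, beside 1.1% of all genes higher. Without ribosomal protein genes in the scaling 1 of the 10 villus middle genes was higher. Of the distal enterocyte list 2 of 17 were higher and 0 lower, of the proximal list 0 of 18 higher and 1 lower, and of the 8 enterocyte markers none passed. Stem cell markers were lower in 2 of 2 measured, cycling markers in 3 of 3 and T cell markers in 2 of 3, beside 7.12% of all genes lower. Of the 5 enteroendocrine markers 1, Chga, reached the minimum level. Its log2 ratio averaged 1.12 over the 3 libraries, but it did not reach 2-fold in all 3. Against the Gsdmc and Dmbt1 cells and the Rbp2 and Adh6a cells, described below, Chga was at least 1.5-fold higher in all 3. Against the Slc5a12 and Enpp7 cells, also described below, its log2 ratio averaged -0.036. Against other enterocytes Chga did not pass 1.5-fold.

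Among the genes past the threshold on the higher side, Maob, a monoamine oxidase, stood first with levels of 178, 201 and 242 in the chosen cells and 66.7, 85.4 and 105 in the others. Cyp4f40, a cytochrome P450 of the fatty acid hydroxylase family, was at 147, 150.4 and 145 against 64.5, 61.4 and 63.5. Slc9a3, the apical sodium and hydrogen exchanger, was at 149.8, 163 and 206 against 65.2, 67.5 and 90.6, and Sis, the sucrase-isomaltase of the brush border, at 792, 609 and 516 against 286, 243 and 231. The others of the first 15 were Ceacam20, Tgfbi, Ptprh, Sgpl1, Slc26a3, Muc3, Hsd17b6, Cyp4f14, Slc7a8, Ano6 and Enpep, among which Slc26a3 is a chloride exchanger, Muc3 a membrane mucin and Slc7a8 an amino acid transporter. On the lower side the first 10 were Stmn1, Hist1h2ao, Olfm4, Slc12a2, Gip, Top2a, 2810417H13Rik, Wbp5, Pyy and Clca3b, which include genes of dividing and crypt cells and 2 gut hormones. Olfm4, a marker of crypt base cells, was at 19.7, 50.1 and 40.2 against 1012, 1132 and 914.

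Set against other enterocytes only, far fewer genes differed. At least 1.5-fold in all 3 libraries, 10 of 2632 genes (0.38%) were higher and 52 (1.98%) lower, with the 8 enterocyte markers not counted since they chose the other set. The 10 higher genes were Scd2, Duox2, Mt2, Oat, Osr2, Cyp4f40, Krt19, Mt1, Bcl2l15 and Prpsap1. Their number hung on where the other set was cut: with a minimum of 20 enterocyte marker UMIs 78 genes were higher and 87 lower, and with the minimum of 10 asked of the chosen cells too 3 were higher and 39 lower.

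Duox2 makes hydrogen peroxide at the apical membrane as part of mucosal defence, and its levels of 142, 214 and 159.9 in the chosen cells stood against 71.8, 94.4 and 88.4 in other enterocytes, ratios of 1.98, 2.27 and 1.81. Scd2, a fatty acid desaturase, was at 167, 129 and 120.5 against 77.9, 68.8 and 56.7. By its cut the other set held no cells with under 10 enterocyte marker UMIs, while 17.3% of the chosen cells were such cells. Scd2 was at 324, 266 and 271 in these chosen cells. In chosen cells with 40 or more it was at 37.9, 39.1 and 24.7, below other enterocytes. The metallothionein genes Mt1 and Mt2 code for small proteins that bind zinc and copper. Mt1 was at 2206, 2017 and 2613 against 976, 1295 and 1067, and Mt2 at 615, 367 and 416 against 237, 214 and 164. In both, the chosen cells of each library exceeded the other enterocytes of all 3. Oat, ornithine aminotransferase, was at 1219, 1099 and 1108 against 706, 677 and 671, and the keratin gene Krt19 at 2848, 2638 and 2037 against 1719, 1689.8 and 1307.

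Genes of the upper small intestine were among those on the lower side. S100g, the calcium-binding protein of the duodenum, was at 67.6, 135 and 196 in the chosen cells and 975, 1526 and 1829.7 in other enterocytes, ratios of 0.0693, 0.0884 and 0.107. Of a list of duodenal iron and calcium genes made after these values were seen, 8 of 11 measured genes were lower and 0 higher, with a median log2 ratio of -1.09 beside 0.051 over all genes. Slc40a1, the iron exporter ferroportin, was at 49.9, 63.1 and 49.0 against 140.3, 136 and 147. Of the proximal enterocyte list, 5 of 19 were lower and 0 higher (median -0.59), and of the distal list 3 of 17 were lower and 0 higher (median -0.18). The other set held no cells with under 10 enterocyte marker UMIs. In such chosen cells the proximal gene Rbp2 was at 1482, 1866 and 2681, beside 19081, 12499.5 and 14560.3 in those with 40 or more. How far that cut entered these ratios was not tested. Cyp3a11, a cytochrome P450 of drug metabolism, was at 3.53, 20.7 and 22.5 against 82.1, 88.0 and 88.7. Tmigd1, an adhesion molecule of the distal list, was at 92.8, 95.9 and 54.6 against 334, 228 and 165. The lectin gene Reg1 was at 749, 449 and 705 against 1904, 2015 and 2349.

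For a finer place on the villus, 3 further sets of top 8% cells were chosen in the same way from the scores of other genes, without the cells above. They were cells with Gsdmc2, Gsdmc3, Gsdmc4 and Dmbt1 (711 cells), with Slc5a12, Enpp7, Ada and Slc28a2 (715 cells) and with Rbp2, Adh6a, Gsta1 and Lct (699 cells). The overlap removed came to 45, 41 and 57 of the 756 chosen cells (5.95%, 5.42% and 7.54%). Genes that chose either set were left out of the counts between them. The comparisons were added after the values had been seen.

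Measured as the share of tip list UMIs among tip and base list UMIs, the chosen cells were at 1.80, 1.87 and 3.09%. The Gsdmc and Dmbt1 cells were at 0.776, 1.05 and 1.17%, the Slc5a12 and Enpp7 cells at 13.2, 8.30 and 10.3% and the Rbp2 and Adh6a cells at 11.3, 12.6 and 12.6%. Other enterocytes were at 5.08, 4.17 and 5.70%. By this share the chosen cells lay above the Gsdmc and Dmbt1 cells and below the rest in each library. That order depended on the most abundant genes: without the Reg genes and Apoa4 the chosen cells were at 2.55, 2.97 and 2.97% and the Gsdmc and Dmbt1 cells at 2.72, 2.62 and 2.58%, which are not in the same order in every library, while the Slc5a12 and Enpp7 cells stayed higher at 11.1, 6.26 and 7.08%. Some genes of the lists also chose a set (Ada and Slc28a2 of the tip list, and the Gsdmc genes and Dmbt1 of the base list), and without these the whole-list shares were 1.80, 1.87 and 3.10% in the chosen cells, 0.784, 1.05 and 1.18% in the Gsdmc and Dmbt1 cells and 12.8, 8.17 and 10.0% in the Slc5a12 and Enpp7 cells. The share thus placed the chosen cells below the Slc5a12 and Enpp7 cells each time, and above the Gsdmc and Dmbt1 cells in every library only with the Reg genes and Apoa4 counted.

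Genes of the villus middle did separate them from the Gsdmc and Dmbt1 cells. All 10 measured genes of this list, which holds transporters of sugars and amino acids, were at least 1.5-fold higher in the chosen cells, with a median log2 ratio of 1.55 beside 0.0033 over all genes. The same held for 19 of 20 fat absorption genes, 15 of 16 amino acid and peptide genes and all 8 enterocyte markers. The separation was therefore not particular to the middle list. In all, 432 of 2717 genes (15.9%) were higher and 450 (16.6%) lower. The Gsdmc and Dmbt1 cells had 19.1% ribosomal protein UMIs, and leaving these out of the scaling moved the median of all genes by -0.16 and the counts to 337 higher and 602 lower, with all 10 middle list genes still higher. Slc5a1, the sodium-glucose transporter, was at 718, 711 and 811 in the chosen cells and 147, 179 and 205 in the Gsdmc and Dmbt1 cells. Against the Slc5a12 and Enpp7 cells, where 134 of 2627 genes (5.1%) were higher and 137 (5.22%) lower, 0 genes of the middle list were higher and 2 of 11 were lower. These were Slc2a2, the basolateral glucose transporter, and Slc6a19, a neutral amino acid transporter, the latter at 104, 131 and 169 against 574, 403 and 465. Against other enterocytes 0 of 10 middle list genes were higher and 2 lower, with a median log2 ratio of -0.084. Against the Rbp2 and Adh6a cells 0 of 11 were higher and 3 lower, with a median of -0.44.

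Of the base list 4 of 9 genes were higher and 0 lower in the chosen cells than in the Slc5a12 and Enpp7 cells, namely Nlrp6, Lypd8, Dmbt1 and Pycard, and the other 5 did not pass. Of the tip list 0 were higher and 3 of 6 lower, namely Klf4, Creb3l3 and Apoa4, and the other 3 did not pass. Against the Gsdmc and Dmbt1 cells 4 of 8 measured base list genes were higher and 1 lower, beside 15.9% and 16.6% of all genes. The median log2 ratio of the base list was 0.57 against these cells and 0.52 against the Slc5a12 and Enpp7 cells. By that median the base list did not put the chosen cells between them. Klf4, a transcription factor of differentiated epithelium, was at 52.4, 58.8 and 69.9 in the chosen cells, 19.5, 38.7 and 28.5 in the Gsdmc and Dmbt1 cells and 342, 194 and 247 in the Slc5a12 and Enpp7 cells. Apoa4, an apolipoprotein of lipid export, was at 1331, 1467 and 2155 in the chosen cells, at 126, 415 and 374 in the Gsdmc and Dmbt1 cells and at 9770.2, 6367 and 5990.1 in the Slc5a12 and Enpp7 cells. Both genes put the chosen cells between the other sets in every library.

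**Figure D2:**
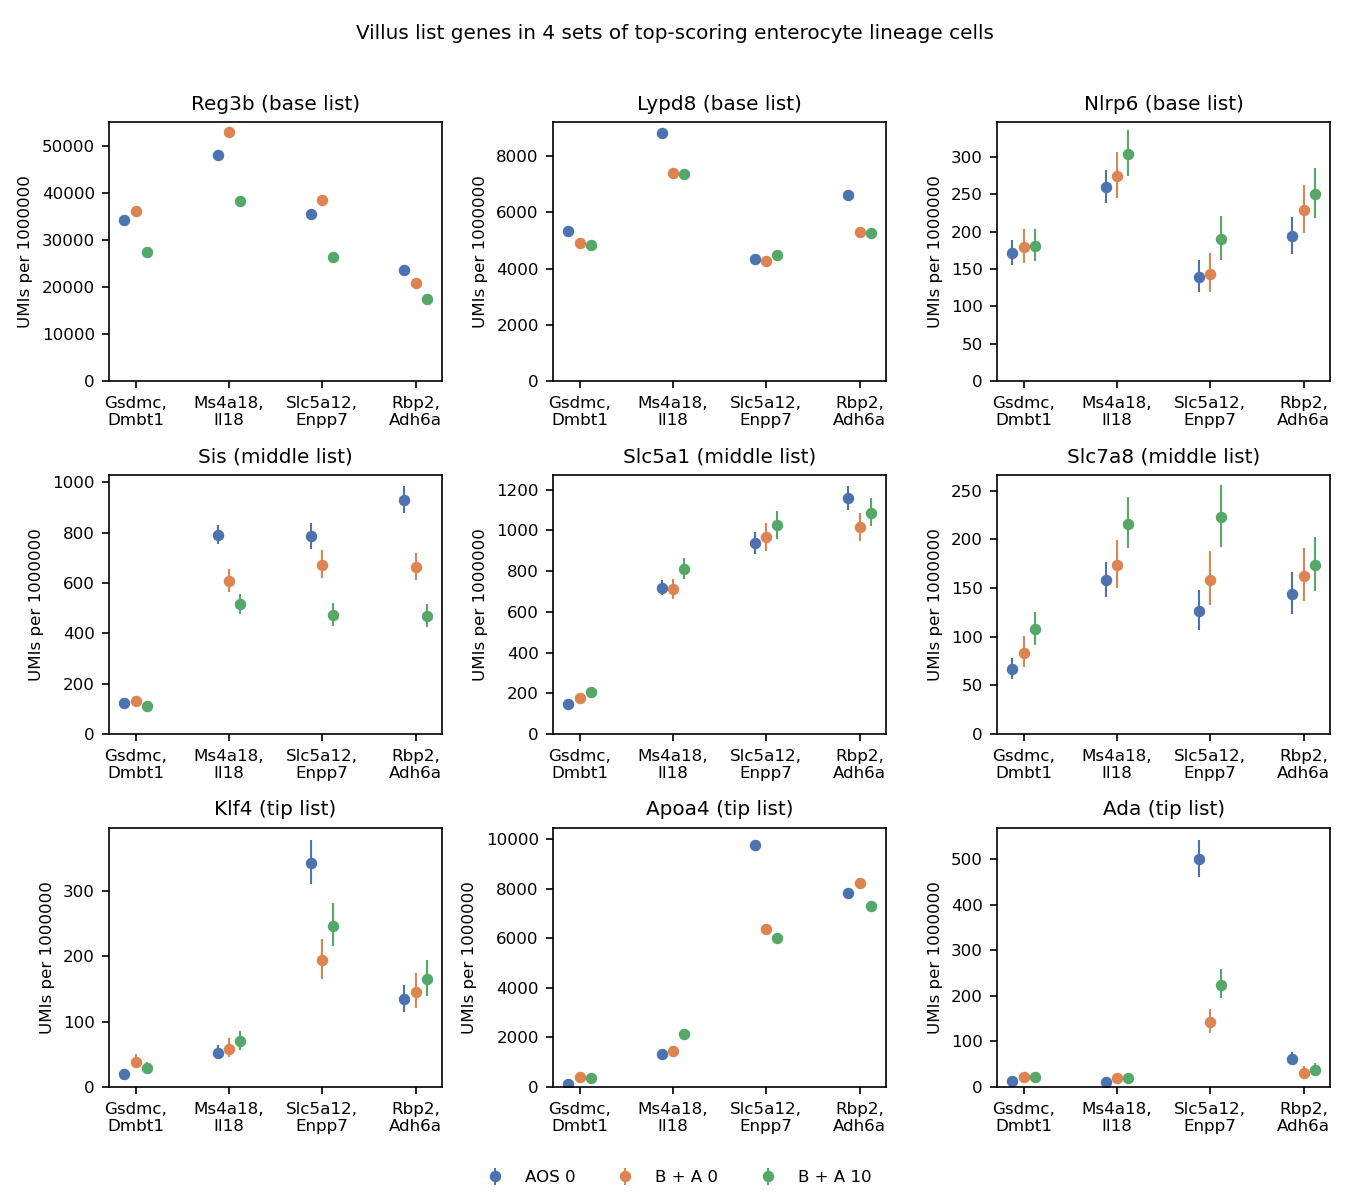
Levels (y axis, UMIs per 1000000 with 95% Poisson intervals) of 3 base list, 3 middle list and 3 tip list genes in 4 sets of top 8% cells (x axis, named by their score genes), with 1 colour per library. Reg3b, Lypd8 and Nlrp6 are highest in the Ms4a18 and Il18 cells of each library, Sis and Slc5a1 are low in the Gsdmc and Dmbt1 cells, and Klf4 and Apoa4 are higher in the sets on the right.

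Set beside the Rbp2 and Adh6a cells, 192 of 2622 genes (7.32%) were higher and 165 (6.29%) lower, or 238 and 135 when ribosomal protein genes were left out of the scaling. Duox2 was at 11.1, 17.5 and 17.8 in those cells, ratios of 12.9, 12.3 and 8.99. Proximal genes were lower in the chosen cells, 14 of 17 measured with a median of -1.24, as were 9 of 11 duodenal iron and calcium genes with a median of -1.88. The choice of the other set by Rbp2, Adh6a, Gsta1 and Lct favoured this direction, also with those genes left out. Of the distal list 3 of 14 were higher and 0 lower. Fabp6, the ileal bile acid binding protein, was at 7976, 8969.6 and 5367 in the chosen cells and 425, 528 and 515 in the Rbp2 and Adh6a cells, and at 10505, 9935 and 8281 in other enterocytes.

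Over the 4 sets, 173 of 2659 genes (6.51%) had their highest level in the chosen cells in all 3 libraries, 31 of them (1.17%) by at least 1.2-fold over the next set. The Gsdmc and Dmbt1 cells led in 842 genes, the Rbp2 and Adh6a cells in 329 and the Slc5a12 and Enpp7 cells in 189, so a peak in the chosen cells was the least common. Cyp4f40 led by the most, at least 1.51-fold in each library. Gfpt1, the entry enzyme of hexosamine synthesis, followed with at least 1.46-fold, from levels of 282, 303 and 294 in the chosen cells. The next were Efnb2, Mt1, Reg3b, Ncstn, Tstd1, Lypd8, Prpsap1 and Mgst2. Among the first 25 were Hmgcs1, Cyp51 and Msmo1 of cholesterol synthesis, the membrane mucin Muc3 and Pfkp, a phosphofructokinase.

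Antimicrobial genes were abundant in the chosen cells. Reg3b, a lectin that binds bacteria, made up 48168, 52877 and 38349 UMIs per 1000000, beside 40561, 43793 and 31870.5 in other enterocytes and 34197, 36239 and 27528 in the Gsdmc and Dmbt1 cells. Reg3g, its close relative, was at 35773, 38454 and 27639.5, beside 28989, 32158 and 24932 in other enterocytes and 28923, 29258 and 24997 in the Gsdmc and Dmbt1 cells. Reads of such close relatives may be split between them by the counting. Lypd8, a protein that keeps flagellated bacteria off the epithelium, was at 8836, 7379 and 7352, beside 7240.3, 6674 and 5973 in other enterocytes. For these 3 the chosen cells were the highest set in each library, by less than 1.5-fold over other enterocytes. That did not hold for all chosen cells. In those with 0 or 1 Fabp6 UMIs of 1000, a split described below, Reg3b was at 35838, 36379 and 33206. Reg3g was at 28052, 29678 and 24633 there, and Lypd8 at 8477, 7098 and 7329. Reg3g was thus below other enterocytes, which were not split, in each library, and Reg3b was below them in AOS 0 and B + A 0. Lypd8 stayed above them. Of the 12 defence genes measured against other enterocytes, 1 was higher (Duox2) and 1 lower (Reg1), with a median log2 ratio of 0.13. Against the Rbp2 and Adh6a cells 3 of 11 were higher (Reg3b, Reg3g and Duox2) and 1 lower (Reg1), beside 7.32% and 6.29% of all genes.

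Parts of the inflammasome were present in the chosen cells and in other enterocytes. Of its list, 0 of 8 measured genes passed 1.5-fold in either direction between them. Over all genes 0.38% were higher and 1.98% lower, so a count of 0 does not set the list apart. Nlrp6, the sensor, was at 259.7, 275 and 304 beside 183, 215 and 234. Pycard, the adaptor, was at 1932, 1604 and 1503 beside 1214, 1122 and 1078, with ratios of 1.59, 1.43 and 1.39 that fell short of the threshold in 2 libraries. Casp1, which cuts the interleukin 18 precursor, was at 289, 202 and 162 beside 213, 188 and 144. Gsdmd, the pore-forming gasdermin that caspase 1 also cuts, was at 168, 173 and 164 beside 267, 256 and 249.7, and Il18bp, a secreted inhibitor of interleukin 18, at 27.2, 26.8 and 25.7 beside 44.1, 27.3 and 26.4. Pycard and Gsdmd lay in opposite order between 2 of the further sets. Pycard was at 2962, 2552 and 2476 in the Gsdmc and Dmbt1 cells and 435, 568 and 603 in the Slc5a12 and Enpp7 cells, with the chosen cells between them. Gsdmd was at 33.8, 53.6 and 53.8 in the former and 412, 329 and 344 in the latter, again with the chosen cells between them.

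Relatives of the score genes did not all follow them. Ms4a10, another MS4A gene, was at 242, 246 and 277 in the chosen cells and 353, 341 and 361 in other enterocytes, and at 633, 600.3 and 553 in the Slc5a12 and Enpp7 cells. Ms4a8a was at 279.9, 248 and 207 beside 234, 242 and 200.2 in other enterocytes. Apol7a, of the apolipoprotein L family, was at 69.6, 61.4 and 61.9 beside 103, 84.8 and 103. Hk2, a hexokinase, was at 18.7, 31.1 and 34.5 beside 24.4, 32.3 and 38.9, and Hk1 was at 1 UMI or none in each library. Hk2 and Hk1 lay below the minimum level in the chosen cells, so they cannot show whether hexokinases followed. With the score genes left out, 0 of 2 measured genes of the MS4A list passed 1.5-fold in either direction against other enterocytes. The same held for 0 of 3 measured genes of the apolipoprotein L list. Over all genes 0.38% were higher and 1.98% lower, so these counts of 0 do not set either list apart.

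Within the chosen cells, Fabp6 UMIs split off a smaller group. At least 5 of 1000 thinned UMIs were Fabp6 in 53, 38 and 39 of the chosen cells (21.2%, 21.6% and 11.8%), and 175, 113 and 255 had 0 or 1. Reg3b was at 80463, 87421 and 72408 UMIs per 1000000 in the cells with 5 or more and at 35838, 36379 and 33206 in those with 0 or 1. Duox2 was at 272, 402 and 409 against 94.5, 149.6 and 121. Car4 was at 487, 466 and 488 against 329, 303 and 290.0. Rbp2, a retinol-binding protein strongest in the upper gut, went the other way with 1979.9, 1583 and 1458 against 10535, 8394 and 9891, as did Fabp1, the fatty acid-binding protein, with 589.6, 756 and 923 against 9696, 9318 and 10232. Ms4a18 was at 434, 446 and 515 against 490.1, 584 and 639.8, and Il18 at 236, 253 and 145 against 273, 278 and 242. Car4, Ms4a18 and Il18 are score genes read in cells that their sum had chosen. Median depth of the cells with 5 or more was 8633, 6630.5 and 3408 UMIs, above the 6909, 5691 and 3262 of those with 0 or 1.

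**Figure D3:**
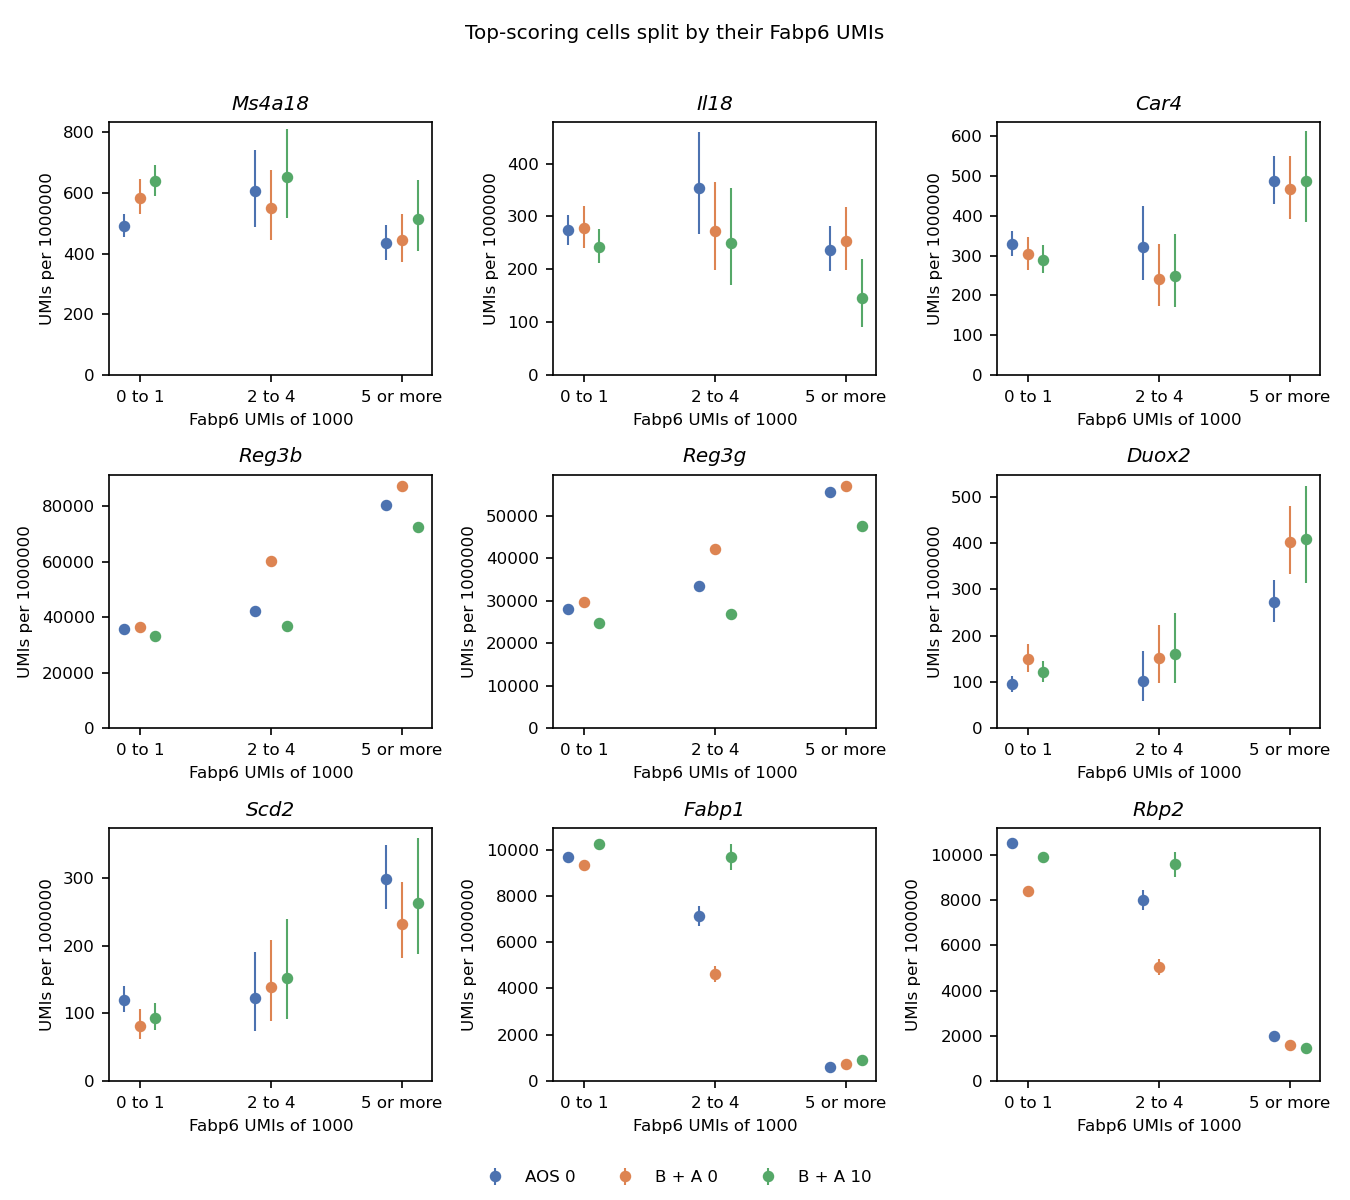
Levels of 9 genes (y axis, UMIs per 1000000 with 95% Poisson intervals) in chosen cells with 0 to 1, 2 to 4 and 5 or more Fabp6 UMIs of 1000 (x axis), 1 colour per library. Reg3b, Reg3g, Duox2, Scd2 and Car4 are higher in cells with 5 or more than in cells with 0 or 1 in every library, and Fabp1 and Rbp2 are lower.

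A second split was made by the enterocyte markers, whose own levels made the groups. Fabp1 is among these markers and also differed between the Fabp6 groups, so the splits are not independent. Chosen cells with under 10 of 1000 thinned enterocyte marker UMIs had Krt19 at 4229, 3663 and 3152 and those with 40 or more at 1281, 1553 and 1146. Duox2 was at 239, 229 and 259.8 in the former and 48.0, 107 and 63.1 in the latter, and Mt1 at 2443, 2369.9 and 2873 and then 1241, 1634 and 1879. Rbp2 went the other way, from 1482, 1866 and 2681 in the former to 19081, 12499.5 and 14560.3 in the latter. Car4, a score gene, was at 486, 367 and 463 and then 283, 270.0 and 200.2. Krt19 and Duox2, both higher in the chosen cells than in other enterocytes, were thus lowest in the chosen cells with the most enterocyte marker UMIs. Duox2 and Car4 were higher, and Rbp2 lower, with few marker UMIs as with 5 or more Fabp6 UMIs. Mt1 differed: it was at 1852, 1691 and 1372 with 5 or more Fabp6 UMIs and 2336, 2153 and 2811 with 0 or 1. How far both splits parted the same cells was not tested.

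The share of such cells per library cannot be read from the rule, which takes 8% of each. With 1 threshold for all libraries on the score of thinned cells, 284 of 3124 (9.09%, exact binomial interval 8.11 to 10.2), 166 of 2200 (7.55%, 6.48 to 8.73) and 305 of 4119 (7.40%, 6.62 to 8.25) cells passed. AOS 0 had the highest share, and its interval overlapped those of both busulfan libraries. Only 345 of these 755 cells (45.7%) were among the 756 above. As shares of all cells the values were 6.92% (6.16 to 7.74), 5.20% (4.45 to 6.02) and 5.70% (5.09 to 6.35), and by that denominator the interval of AOS 0 did not overlap that of B + A 0.

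The 3 comparisons between libraries ask how these cells differed after busulfan without and with AOS. They share libraries with each other, so they are not independent. Among 2649 genes with at least 50 UMIs per 1000000, a ratio of at least 1.5 in either direction is counted below.

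In B + A 0 against AOS 0, 42 genes (1.59%) were higher and 41 (1.55%) lower. The 5 largest ratios were those of Gstp1 with 3.62 (3.01 to 4.37), AY761184 with 3.61 (2.87 to 4.57), Retnlb with 3.45 (2.87 to 4.16), Hspa1b with 3.43 (2.29 to 5.20) and Smim24 with 3.26 (2.29 to 4.68). Gstp1 is a glutathione transferase, Retnlb a goblet cell protein and Hspa1b a stress-induced chaperone. In other enterocytes of the same libraries the ratios were 4.10 for Gstp1, 2.82 for Retnlb and 2.31 for Hspa1b. All 6 goblet markers and all 3 measured Paneth markers were higher, beside the higher goblet and Paneth sums given above for B + A 0. In other enterocytes 5 of the 6 goblet markers and all 3 Paneth markers were higher too.

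The smallest ratios in that comparison were those of Ifit2 with 0.485 (0.334 to 0.690), Snx7 with 0.561 (0.405 to 0.767), Msmo1 with 0.567 (0.444 to 0.720), Insig1 with 0.578 (0.427 to 0.772) and Wasf2 with 0.581 (0.445 to 0.752). Msmo1 and Insig1 belong to cholesterol synthesis and its control. Of a cholesterol synthesis list made after these values were seen, 5 of 14 were lower and 0 higher, with a median log2 ratio of -0.43 in the chosen cells and -0.26 in other enterocytes. Hmgcs1, which makes the first committed metabolite on the way to mevalonate, was at 197, 124 and 105 over the 3 libraries. Of 20 interferon response genes 1 was higher (Oas1a) and 3 were lower (Ifit2, Ifit3 and Ifi27l2b).

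In B + A 10 against B + A 0, 62 genes (2.34%) were higher and 31 (1.17%) lower. Ifi27l2b, an interferon-induced gene, had a ratio of 4.0 (3.70 to 4.32) from levels of 1149, 689.8 and 2758. Rsad2, the antiviral enzyme viperin, had 2.25 (1.81 to 2.80). The next were Mitd1 with 2.2 (1.58 to 3.12), Sgk1 with 2.06 (1.41 to 3.06) and Tmem242 with 2.03 (1.37 to 3.06). In other enterocytes Ifi27l2b had 5.25 and Rsad2 1.75. Of 20 interferon response genes 4 were higher (Ifit1, Ifit3, Rsad2 and Ifi27l2b) and 0 lower, with a median log2 ratio of 0.30 in the chosen cells and 0.14 in other enterocytes.

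Lower in B + A 10 than in B + A 0 were first Stx6 with 0.424 (0.294 to 0.604), then Mptx2 with 0.427 (0.286 to 0.628), Mptx1 with 0.429 (0.326 to 0.559), Ang4 with 0.441 (0.345 to 0.560) and Lyz1 with 0.455 (0.390 to 0.529). Ang4 and Lyz1 are Paneth cell genes, and all 3 Paneth markers were lower, as they were in other enterocytes. Of the distal list 5 of 19 genes were lower and 0 higher: Fabp6, Slc10a2, Tmigd1, Mep1a and Slc34a2. Slc10a2, the ileal bile acid transporter, had 0.588 (0.404 to 0.849) and Fabp6 0.598 (0.580 to 0.617). The share of chosen cells with 5 or more Fabp6 UMIs was also lowest in B + A 10, as given above. Among cells with 5 or more, the Poisson intervals of B + A 0 and B + A 10 overlapped for both Slc10a2 and Tmigd1. Slc10a2 was at 239.7 in B + A 0 and 297 in B + A 10 with 5 or more UMIs, and at 7.19 and 3.10 with 0 or 1. Tmigd1 was at 327 in B + A 0 and 317 in B + A 10 with 5 or more UMIs, and at 14.4 and 12.4 with 0 or 1. How far the share of cells with 5 or more Fabp6 UMIs entered these ratios was not tested for any gene. Within the Fabp6 groups Reg3b was at 87421 in B + A 0 and 72408 in B + A 10 with 5 or more UMIs, and at 36379 and 33206 with 0 or 1. Over all chosen cells its ratio was 0.725 (0.717 to 0.734).

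B + A 10 against AOS 0 had the most genes past the threshold, with 132 (4.98%) higher and 77 (2.91%) lower. Hspa1b had 5.53 (3.83 to 8.16), Ccl5 4.23 (3.66 to 4.91), Gstp1 3.67 (3.05 to 4.42), S100g 2.90 (2.34 to 3.61) and Gzma 2.83 (2.37 to 3.40). Ccl5 and Gzma are genes of T cells, and the T cell marker sum in the chosen cells was 161, 276 and 478. With the few cells rich in T cell or goblet markers left out, the ratios were 7.04 for Ccl5 and 4.23 for Gzma, and 220 genes passed the threshold beside 209. With the cells chosen on the thinned score the Gzma ratio was 0.911, on the other side of 1. S100g was low in the chosen cells of each library, as given above, and had a ratio of 1.88 in other enterocytes. The lowest ratios were those of Stx6 with 0.433 (0.307 to 0.601), Akr1c19 with 0.451 (0.313 to 0.636), Smek2 with 0.463 (0.322 to 0.654), Ola1 with 0.476 (0.330 to 0.673) and Sqle with 0.480 (0.351 to 0.649).

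Of the lists, 8 of 14 cholesterol synthesis genes were lower in B + A 10 than in AOS 0 and 0 higher, with medians of -0.62 in the chosen cells and -0.45 in other enterocytes. Sqle, squalene epoxidase, was at 95.3, 61.4 and 45.8 UMIs per 1000000. Of the amino acid and peptide list 5 of 18 were higher and 0 lower. Slc15a1, the peptide transporter of the brush border, had 2.72 (2.30 to 3.24) and Slc6a19 1.63 (1.34 to 1.99), while in other enterocytes they had 2.15 and 0.994. Casp1 had 0.561 (0.475 to 0.659) and was the only 1 of 8 measured genes of the inflammasome list to pass the threshold in any of the 3 comparisons. All 6 goblet markers were higher, as in B + A 0.

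**Figure D4:**
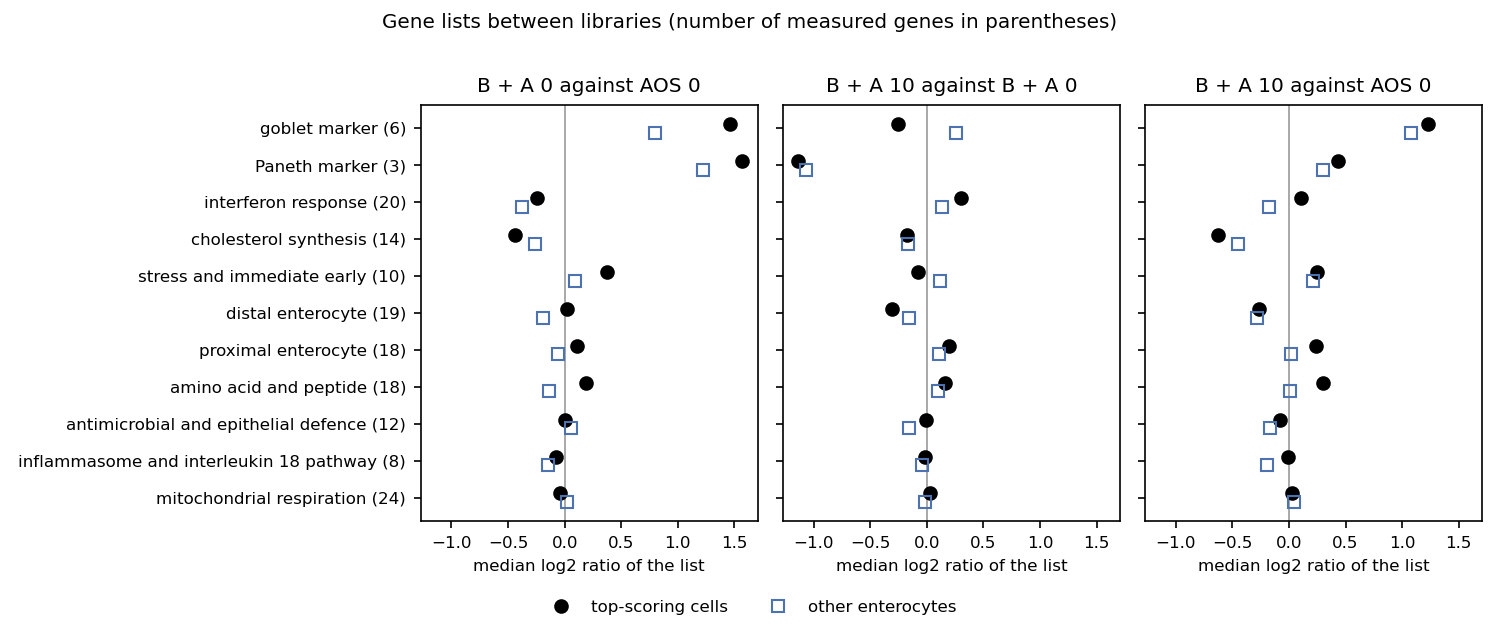
Median log2 ratio of gene lists (x axis) in each of the 3 comparisons of libraries (panels), with the number of measured genes in parentheses. Black circles are the chosen cells and open blue squares other enterocytes, and both lie on the same side of 0 for the Paneth markers and for cholesterol synthesis in every panel.

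The 6 score genes themselves differed little between libraries, and the rule fixed part of that. Apol10a had the ratio furthest below 1, 0.702 (0.636 to 0.773) in B + A 0 and 0.708 (0.644 to 0.778) in B + A 10 against AOS 0, and with the cells chosen by the other 5 genes 0.653 (0.583 to 0.731) and 0.601 (0.535 to 0.674). Reg3a in B + A 10 against B + A 0 had 1.26 (1.17 to 1.35) by the rule and 1.02 (0.932 to 1.12) when it was left out of the score. Il18 had 1.00 (0.870 to 1.16) in B + A 0 and 0.858 (0.741 to 0.992) in B + A 10 against AOS 0, and 1.10 (0.916 to 1.33) and 0.791 (0.646 to 0.965) when left out. Ms4a18 had 1.12 (1.01 to 1.24) and 1.29 (1.17 to 1.42), and 1.08 (0.958 to 1.21) and 1.21 (1.08 to 1.35) when left out. Hkdc1 and Car4 stayed within 1.5-fold in each comparison, by the rule and when left out. Of the 6 genes, Apol10a alone passed 1.5-fold, and it did so in the cells chosen without it.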

How the data were processed

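Small intestinal cells of 3 groups were captured by 10x 3′ chemistry after enzymatic digestion, 1 library per group from the cells of 6 mice. The authors counted UMIs with Cell Ranger 2.2.0 on mm10, with the number of cells forced to 5000 per library, and filtered and normalised them in Seurat. The deposited table is on a natural log scale, ln(1 + UMIs per 10000), for 13891 genes and 12653 cells, with no cell type names. In 1 label field the 2 busulfan libraries carried other group names than in their title, description and treatment fields, and the latter were used.

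Whole UMIs were recovered from 100% of 24333763 values above 0, within 0.01 UMI. Cells were chosen as described, and UMIs were summed over the cells of a set. Levels have exact Poisson intervals, and ratios and shares have exact binomial intervals, at 95%. Counts of genes used those with a mean of at least 50 UMIs per 1000000, over the 3 libraries or, between sets, averaged over both. With 1 library per group no p-value was computed. Named genes were the 6 score genes, listed genes, and the first by ratio in each comparison (15 higher and 10 lower against all other cells, 5 each way between libraries). The members and the gene lists were chosen with earlier results of these data known, and 4 lists, the comparisons with other enterocytes and with 3 further sets, and the splits by Fabp6 and enterocyte markers were added after the values were seen. Cells with many UMIs (possible doublets) were kept, and leaving out those in the top 5% was an alternative. Other alternatives changed the share of cells taken, the score, the threshold, the scaling and the minimum level. Not every gene of the marker lists is reported here by name. Counts and scripts were tested on simulated data with known answers. Python 3.11.15 was used with numpy 2.4.6, scipy 1.17.1, pandas 2.3.3 and matplotlib 3.10.9.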

Additional observations from a re-analysis of the deposited data

How the results depend on the processing

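Of the values for the counts of genes and the tip share under an alternative, 54 stayed within 1.5 times the count or within the 95% interval of the share and 32 moved. The minimum level moved all 5 counts: at 20 UMIs per 1000000 they were 428 (against all other cells), 102 (other enterocytes), 329 (B + A 0 against AOS 0), 387 (B + A 10 against B + A 0) and 543 (B + A 10 against AOS 0), and at 100 they were 134, 37, 31, 35 and 102, beside 224, 62, 83, 93 and 209 at 50. With the top 5% of cells 129 genes passed in B + A 0 against AOS 0 and 170 in B + A 10 against B + A 0, and with the top 12% 57 did in the latter. Against other enterocytes 29 genes passed with the score on thinned cells, 31 with 1 threshold over the libraries and 165 with a minimum of 20 enterocyte marker UMIs, an alternative chosen after seeing the data.

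The tip share was 1.72% in AOS 0 and 1.98% in B + A 0 with the top 5%, 2.06% in B + A 0 and 3.58% in B + A 10 with the thinned score, 2.07% and 3.60% with 1 threshold, 1.90% in AOS 0 without the members in the top 5% of UMIs, and 2.2%, 2.15% and 3.49% as a mean over cells. It was 2.26%, 2.18% and 3.70% for members with at least 10 enterocyte marker UMIs and 2.55%, 2.97% and 2.97% without Reg genes and Apoa4, both chosen after seeing the data. The cause of these shifts was not tested. Of the values for single genes 492 stayed, 63 moved and 1 changed direction, Gzma in B + A 10 against AOS 0, at 0.911 with the score on thinned cells. No paired analysis was possible because each group had 1 library. The depth of the B + A 10 cells limits what can be seen per cell, and the single library per group limits every comparison between groups. Only 347 of 756 members (45.9%) were also chosen on the thinned score.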
